A study of Mus musculus with 13 samples.

Results

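The 46 genes described here are genes imprinted in at least some mouse tissues and their close neighbours, in 20 imprinted clusters. A region was taken as theirs where the nearest-gene column of the deposited tables named one of them. The 3 tables listed 342 such regions of 181833 in all, 80 of 43378 for WT DMM against WT sham, 131 of 65969 for MUT DMM against WT DMM and 131 of 72486 for MUT DMM against WT sham. Of the 46 genes, 37 had a listed region in at least 1 table, 23 had one in each table and 9 had none. Those 9 were Kcnq1ot1, Phlda2, Rian, Rtl1, Peg3, Nnat, Peg13, Zrsr1 and Nap1l5.

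The mark measured was 5-hydroxymethylcytosine (5hmC) at CCGG sites in genomic DNA of dissected mouse knee cartilage. In the method, reduced representation hydroxymethylation profiling, fragments cut by MspI survive a repeated MspI digest only where glucose has been put on 5hmC at their ends. All samples came from male mice of strain B6;129S4, 6 weeks after surgery, aged 3 to 4 months per the design text or 4 to 6 months per the treatment protocol. WT mice are labelled TET1+/+ and MUT mice TET-/-, and the labels give neither the mutant allele nor the cells it acts in. In DMM knees the medial meniscus was taken out, per the labels. In sham knees the joint was opened and nothing else was done, and the control is stated to lie on the opposite leg. The labels name 13 samples, and 4 of them, the MUT sham libraries and a background control made without the glucosyltransferase, were not analysed here. Background was therefore not subtracted, and the genotypes could be compared only with DMM on the mutant side.

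Imprinted genes are used mainly from the maternal or the paternal copy. The choice is set by DNA methylation that egg or sperm places at control regions and that somatic cells keep on the same parental copy. TET enzymes oxidise 5-methylcytosine to 5hmC, which can be a step towards loss of methylation, and TET1 takes part in the erasure of imprints in germ cells. Several clusters act on growth: Igf2 is a growth factor, Igf2r removes it, Grb10 dampens insulin and IGF receptor signalling, Cdkn1c halts the cell cycle and Dlk1 restrains differentiation of mesenchymal cells. The measurements cannot tell the parental copies apart.

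Start windows of members that had a listed region at or near them are shown first, since the results at start sites refer back to them. Each window is the RefSeq sequence from 250 bases before to 50 bases after a transcription start (assembly GRCm38.p6, in mm10 coordinates), written 5′ to 3′ on the gene's strand, with the CCGG sites that the method can read in capitals. The windows are Plagl1 at chr10:13090582-13090881, plus strand, Grb10 at chr11:12037371-12037670, minus strand, Copg2 at chr6:30896745-30897044, minus strand, Ppp1r9a at chr6:4903061-4903360, plus strand, and Snrpn at chr7:60005150-60005449, minus strand.
Plagl1: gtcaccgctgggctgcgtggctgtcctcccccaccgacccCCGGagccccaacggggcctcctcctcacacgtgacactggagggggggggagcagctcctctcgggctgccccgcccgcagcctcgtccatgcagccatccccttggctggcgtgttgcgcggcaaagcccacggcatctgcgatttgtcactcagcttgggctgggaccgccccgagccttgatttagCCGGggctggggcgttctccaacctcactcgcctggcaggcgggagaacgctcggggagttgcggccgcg
Grb10: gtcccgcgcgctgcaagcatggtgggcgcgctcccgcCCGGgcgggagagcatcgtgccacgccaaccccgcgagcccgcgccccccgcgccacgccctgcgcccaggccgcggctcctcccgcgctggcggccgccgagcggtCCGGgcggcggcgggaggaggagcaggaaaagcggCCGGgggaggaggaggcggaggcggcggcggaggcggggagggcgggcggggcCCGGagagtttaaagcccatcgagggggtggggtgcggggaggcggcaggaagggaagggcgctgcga
Copg2: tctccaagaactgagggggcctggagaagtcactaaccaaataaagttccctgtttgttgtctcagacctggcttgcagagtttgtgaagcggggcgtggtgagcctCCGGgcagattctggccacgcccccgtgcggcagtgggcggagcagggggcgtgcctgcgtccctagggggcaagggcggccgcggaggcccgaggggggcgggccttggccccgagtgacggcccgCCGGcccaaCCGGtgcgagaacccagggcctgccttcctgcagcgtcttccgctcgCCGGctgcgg
Ppp1r9a: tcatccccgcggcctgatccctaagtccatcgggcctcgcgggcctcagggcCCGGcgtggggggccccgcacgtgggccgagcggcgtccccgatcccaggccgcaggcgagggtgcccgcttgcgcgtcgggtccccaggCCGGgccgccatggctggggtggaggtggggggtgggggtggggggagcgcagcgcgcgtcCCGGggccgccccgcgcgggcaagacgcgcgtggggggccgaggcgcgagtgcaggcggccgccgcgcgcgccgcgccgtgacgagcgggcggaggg
Snrpn: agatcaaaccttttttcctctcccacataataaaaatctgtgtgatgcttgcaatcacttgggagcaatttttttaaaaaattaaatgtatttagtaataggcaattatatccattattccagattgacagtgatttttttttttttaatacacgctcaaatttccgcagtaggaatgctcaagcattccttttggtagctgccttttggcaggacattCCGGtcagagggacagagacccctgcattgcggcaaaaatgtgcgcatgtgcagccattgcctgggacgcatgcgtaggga
The windows held 2 CCGG sites in Plagl1, 4 in Grb10, 4 in Copg2, 3 in Ppp1r9a and 1 in Snrpn. CCGG reads the same on both strands, and 17338 of 32851 windows of this length in the table (52.78%) held at least 1, against 34 of 57 windows of members (59.65%). Promoter entries were found for 36 of the 46 members. A listed region covered 3 of the CCGG sites in the Copg2 window, 2 in that of Ppp1r9a and 1 in that of Plagl1. The regions at Grb10 and Snrpn began at or after the start and covered none of the sites printed.

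Listed regions also overlapped 2 microRNA hairpins of the Dlk1-Dio3 cluster, whose maternal copy is transcribed into the noncoding RNAs Meg3, Rian and Mirg and a long row of microRNAs. Their mature sequences, from RefSeq, are shown with the seed (bases 2 to 8 from the 5′ end) in capitals.
mmu-miR-673-5p: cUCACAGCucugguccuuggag
mmu-miR-673-3p: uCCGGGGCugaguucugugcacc
mmu-miR-432: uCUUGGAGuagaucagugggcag
The seeds of the 3 sequences differ. The hairpin of Mir673 lies at chr12:109571990-109572080 and that of Mir432 at chr12:109594956-109595030, both on the plus strand and both inside the RefSeq bounds of Rtl1, a gene derived from a retrotransposon that is used from the paternal copy.

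Levels below are the authors' normalized counts, which can be compared within a table only. A region is called higher or lower where its adjusted p in the authors' deposited table is under 0.05. The direction is that of the authors' deposited group means, while the means printed here were computed from the distinct libraries. Part of the regions described are those of smallest adjusted p in their cluster and direction, and most others were chosen after their values were seen. Depth was uneven. For WT sham and for WT DMM there were 3 libraries, given here in the order of the deposited cells. A pair of the 3 MUT DMM entries was identical and was counted once, which leaves a deeper and a shallower MUT DMM library. In WT DMM against WT sham, each read of the first-listed WT DMM library stood for 15.7 normalized counts, and 79 of the 80 member regions had no read in this nearly empty library. In MUT DMM against WT sham, each read of the shallower MUT DMM library stood for 9.45 normalized counts. Nothing in the labels ties a library to a separate animal, so p-values reflect variation among these libraries, which may be technical. PCR reads carried no molecular identifiers, so limits from reads cover counting error only. At Tet1 itself, 3 regions were called higher in WT DMM than in WT sham and 4 were called lower in MUT DMM in each mutant comparison, which does not check a deletion.

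WT DMM against WT sham asks what surgery did to 5hmC in wild-type cartilage. All 80 member regions were called, 78 higher and 2 lower after DMM, from 25 genes. Of all regions listed for this comparison 99.7% were called, 93.2% higher and 6.53% lower, so the split of the members lay near the background. The higher regions had low levels, with a median of 7.26 normalized counts after DMM against 2.74 after sham, and 77 of the 78 had a sham mean of at most 10. In that range 99.99% of all called regions were higher. A change in 5hmC per cell and a change in the share of cells that carry it cannot be told apart in these bulk samples.

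Of the 80 member regions, 0 were called higher without overlap between the groups, beside 0.994% of all listed regions, as the nearly empty library was at 0. Without that library 61 of the 80 were higher without overlap, beside 79.5%, and 1 was lower, beside 2.02%. limma on log2 values gave an adjusted p under 0.05 at 0 member regions (all regions: 0% higher, 0.0161% lower) and an unadjusted p under 0.05 at 1 (0.832%). Without the nearly empty library its adjusted p passed at 58 higher regions, beside 75.9% of all listed regions, and at 1 lower region, beside 1.87%. Leaving out the third-listed WT DMM library instead turned the direction of 30 of the 80 called member regions, all of them higher ones. That is 37.5%, against 28.72% of all called regions.

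**Figure D1:**
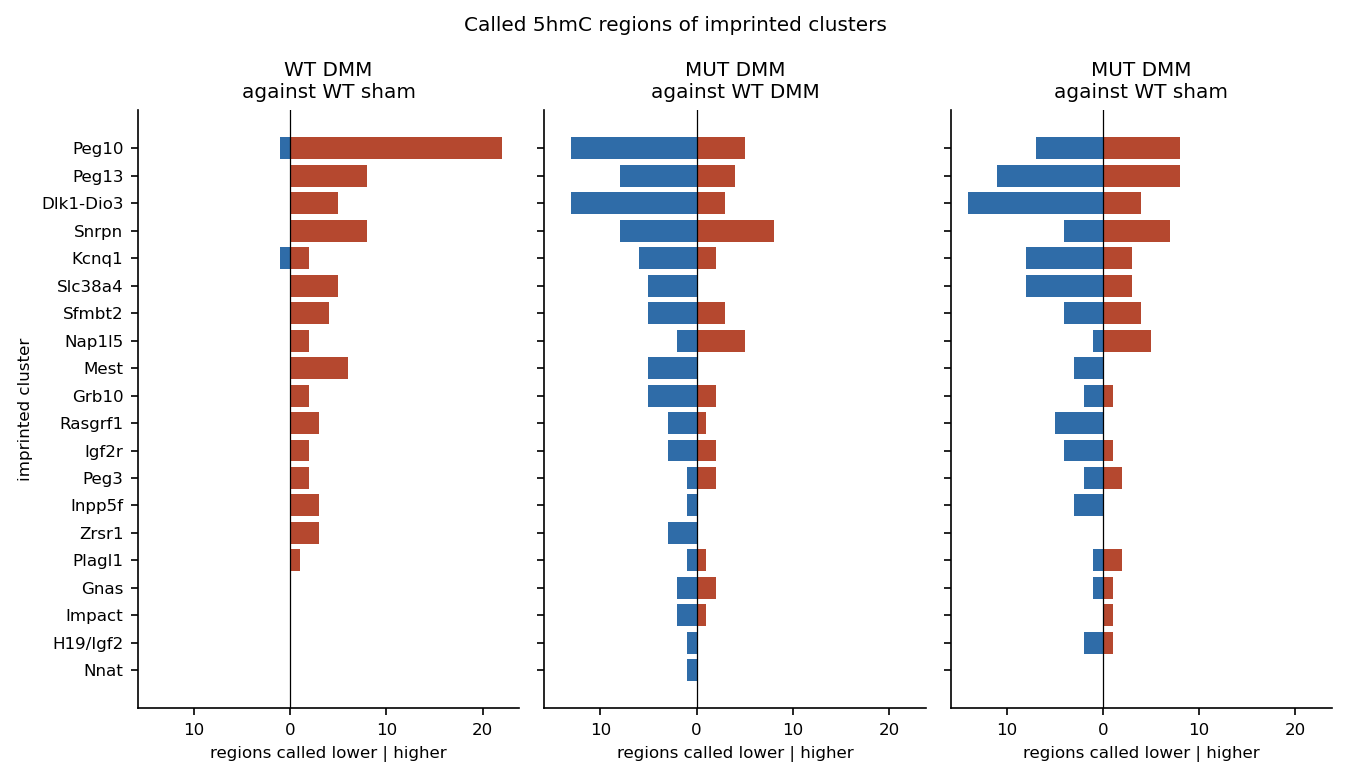
Bars give the number of member regions called higher (right, red) or lower (left, blue) in each of the 20 imprinted clusters, for the 3 comparisons. Peg10 leads the first comparison with 22 higher and 1 lower, and Dlk1-Dio3 has most lower regions in MUT DMM against WT sham, with 14.

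The Peg10 cluster on chromosome 6 held 23 of the 80 regions. Ppp1r9a, which encodes the actin-binding protein neurabin, had 12, all called higher, with WT DMM means of 5.1 to 14.1 against sham means of 2 to 6.79. Calcr, the calcitonin receptor, had 6 higher regions and Asb4, an adaptor of a ubiquitin ligase, had 3. Outside the bounds of Asb4, at chr6:5373541-5373920 the sham libraries held 3.84, 3.58 and 2.56 and the WT DMM libraries 0, 18.7 and 17.7. Both filled WT DMM libraries lay above every sham library there, and the empty one lay below. The WT DMM mean was 12.1 ± 10.5 (SD, n = 3) against 3.33 ± 0.677 (SD, n = 3) in sham. The authors' deposited table gave this region an adjusted p of 0.000289, and limma's adjusted p was 1. With each library left out in turn, its log2 ratio of 1.60 ran from 1.19 to 2.15, the highest without the empty library.

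In the Snrpn, Mest, Peg13 and Zrsr1 clusters all called regions were higher, as in every other cluster with a listed region but Kcnq1 and Peg10. Inside the Snrpn bounds, 2 regions under another name were lower and are given below. Trappc9, a subunit of the TRAPP vesicle tethering complex, had 7, and at chr15:72701701-72701980 inside the gene sham libraries held 4.16, 2.15 and 4.1 and WT DMM libraries 0, 16 and 19.8. Ube3a, the ubiquitin ligase of the Snrpn cluster, had 6. Without the empty library 4 of them were higher without overlap, beside 79.5% of all listed regions. Copg2, a coat protein of transport vesicles beside Mest, also had 6. Of these, chr6:30855241-30855540 held 5.13, 2.86 and 2.22 in sham and 0, 2.67 and 34.4 in WT DMM, a difference carried by the third-listed WT DMM library alone, and it turned without that library. Commd1, a copper transport protein whose intron holds Zrsr1, had 3, and at chr11:22980281-22980500 levels were 4.16, 7.87 and 1.2 in sham and 0, 16 and 26 in WT DMM.

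Slc38a4, an amino acid transporter, had 5 higher regions, and 1 of them was the single member region with a sham mean above 10 that was called higher. That region, chr15:96894421-96894700, lies outside the gene. Its log2 ratio of 0.88 became 0.30 without the third-listed WT DMM library and 1.45 without the empty one. Its sham libraries held 14.4, 13.6 and 16.9 and its WT DMM libraries 0, 37.4 and 47.9. The filled WT DMM libraries stood well above every sham library. In reads these were 45, 19 and 99 in sham and 0, 28 and 46 in WT DMM. Inside Usp29, a deubiquitinase of the Peg3 cluster, chr7:6905021-6905300 held 2.24, 2.15 and 1.37 in sham and 0, 12 and 14.6 in WT DMM, with group means of 1.92 and 8.86. Igf2r, the receptor that takes IGF2 to lysosomes, had 2 higher regions, and at chr17:12736721-12737020 levels were 4.81, 2.86 and 2.91 in sham and 0, 14.7 and 14.6 in WT DMM.

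Regions called lower after DMM lay in Kcnq1, a potassium channel gene whose intron holds the start of the silencing RNA Kcnq1ot1, and just beyond Peg10. At Kcnq1, chr7:143130381-143130600 was at 0 in every WT DMM library and held 29.8, 2.86 and 3.25 in sham. The first-listed sham library was far above the other two. This was the 1 member region of 80 that was lower without overlap, beside 1.71% of all listed regions. A 0 allows up to 3 reads, which is 4 normalized counts in the second-listed WT DMM library and 3.12 in the third, and the other 2 sham values lay below the first of these limits. Near Peg10, a gene derived from a retrotransposon, chr6:4760921-4761120 held 93.2, 1.43 and 5.64 in sham and 15.7, 5.34 and 10.4 in WT DMM. Its call rested on the first-listed sham library, and without that library the direction turned, with means of 10.5 after DMM and 3.54 after sham. The clusters H19/Igf2, Gnas, Impact and Nnat had no listed region in this comparison.

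MUT DMM against WT DMM asks what the mutation changed in operated knees. Of 131 listed member regions from 34 genes, 129 were called, 41 higher and 88 lower in MUT DMM. Of all regions listed for this comparison 98.9% were called, 34.2% higher and 64.7% lower, so the members' split again lay near the background. The higher and lower regions had different levels. Higher regions had median levels of 34.7 in MUT DMM and 15.3 in WT DMM, while lower regions had 2.25 and 6.97. Among members with a WT DMM mean of at most 10, 10 of 72 were higher (13.89%, with 16.6% of all regions), and above 10 there were 31 of 57 (54.39%, with 52.37%).

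Of the 131 listed member regions, 29 were higher and 35 lower without overlap between the groups, beside 22.9% and 18.5% of all listed regions. Without the nearly empty library these were 31 and 75, beside 24.1% and 52.9%. The nearly empty library held no read in 29 of the 41 and 46 of the 88. In 70 of the 88 lower regions the shallower MUT DMM library held 0 or 1 read, where a single read counted for 3.55 normalized counts. limma's adjusted p passed at 0 member regions, as at 0 of all regions, and its unadjusted p was under 0.05 at 6 (all regions: 4.35%). Without the nearly empty library limma called 9 higher and 8 lower, beside 5.84% and 9.88% of all listed regions. Leaving out the third-listed WT DMM library turned the direction of 17 of the 129 called member regions, all of them lower ones, or 13.18% against 18.96% of all called regions. Leaving out the deeper MUT DMM library turned 8, also lower ones, or 6.202% against 6.731%. Where the nearly empty library held a read, that read alone was worth 9.56 normalized counts.

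**Figure D2:**
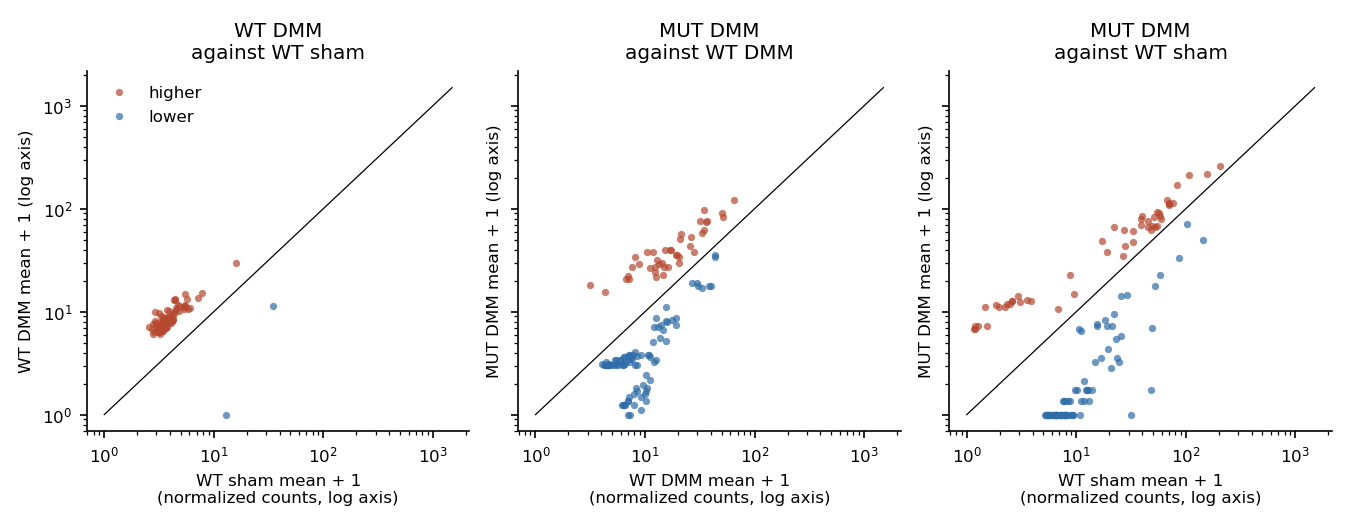
Each point is a called member region, with the mean of the control group plus 1 on the x axis and the mean of the other group plus 1 on the y axis, both log axes in normalized counts; the line marks equal means. In the first panel 77 of 80 points have a sham mean of at most 10, and in the last panel a row of 40 points sits at 0 in MUT DMM.

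Start sites were known here only for the members with a promoter entry. Within 1 kb of them, under any gene name, 8 regions were called in this comparison, and 7 of them were higher in MUT DMM. Among all called regions within 1 kb of any start, 72.82% of 6539 were higher, so this share too was near the background. These regions were chosen for description after their values were seen. The region at the Plagl1 start, chr10:13090741-13091080, carries the name HYMAI in the authors' table and spans 91 bases before to 248 after the start of the Plagl1 window printed above. Plagl1 encodes a zinc finger transcription factor that restrains growth, and its start lies in the control region of the locus. MUT DMM libraries held 49.4 and 42.6 there and WT DMM libraries 0, 29.3 and 37.1, in reads 211 and 12 against 0, 39 and 61. Both MUT DMM libraries lay above all WT DMM libraries. The mean was 46 ± 4.75 (SD, n = 2) in MUT DMM and 22.2 ± 19.6 (SD, n = 3) in WT DMM. The authors' deposited table gave an adjusted p of 0.000755, and limma's adjusted p was 0.675. The log2 ratio of 1.02 fell to 0.46 without the nearly empty library.

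At Grb10 the region chr11:12037101-12037420 began at the start of the printed window and ran 319 bases into the gene. Levels were 30.4 and 21.3 in MUT DMM and 0, 25.6 and 8.52 in WT DMM, so the shallower MUT DMM library lay below the second-listed WT DMM library and the groups overlapped. The Copg2 region, chr6:30896701-30896900, named Tsga13 by the authors, crossed the start from 106 bases before to 93 after. It held 38.6 and 32 in MUT DMM and 19.1, 26.3 and 18.3 in WT DMM, and the groups did not overlap. At Ppp1r9a the region chr6:4903021-4903260 held 27.8 and 24.9 in MUT DMM and 0, 25.6 and 16.4 in WT DMM, with the shallower library below the second-listed WT DMM library. Without the nearly empty library the log2 ratios were 0.57 at Grb10, from 1.12, and 0.31 at Ppp1r9a, from 0.87. At Copg2 the log2 ratio of 0.71 ran from 0.57 to 0.88 with each library left out.

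Gnas, which encodes the stimulatory G protein alpha subunit from several start sites, had 2 such regions. At chr2:174330261-174330460, 255 to 454 bases after the start at 174330006, MUT DMM held 30.9 and 32 and WT DMM 0, 29.3 and 14.6, without overlap, and its log2 ratio of 1.05 was 0.50 without the empty library. At chr2:174327861-174328080 MUT DMM held 42.1 and 32 and WT DMM 0, 50.4 and 29.8, and this higher mean rested on the empty library, since without it the log2 ratio of the means was -0.11. Rasgrf1, an exchange factor for Ras, held 14.5 and 14.2 in MUT DMM against 0, 4.51 and 5.48 in WT DMM at chr9:89910021-89910260, 246 to 485 bases after its start, or 4.31-fold by the means, and its log2 ratio of 1.83 was 1.36 without the empty library. The lower region was at Mest, chr6:30738601-30738800, with 0.94 and 3.55 in MUT DMM and 0, 4.51 and 6.7 in WT DMM, in reads 4 and 1 against 0, 6 and 11. That difference vanished without the third-listed WT DMM library, where the log2 ratio was -0.004.

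**Figure D3:**
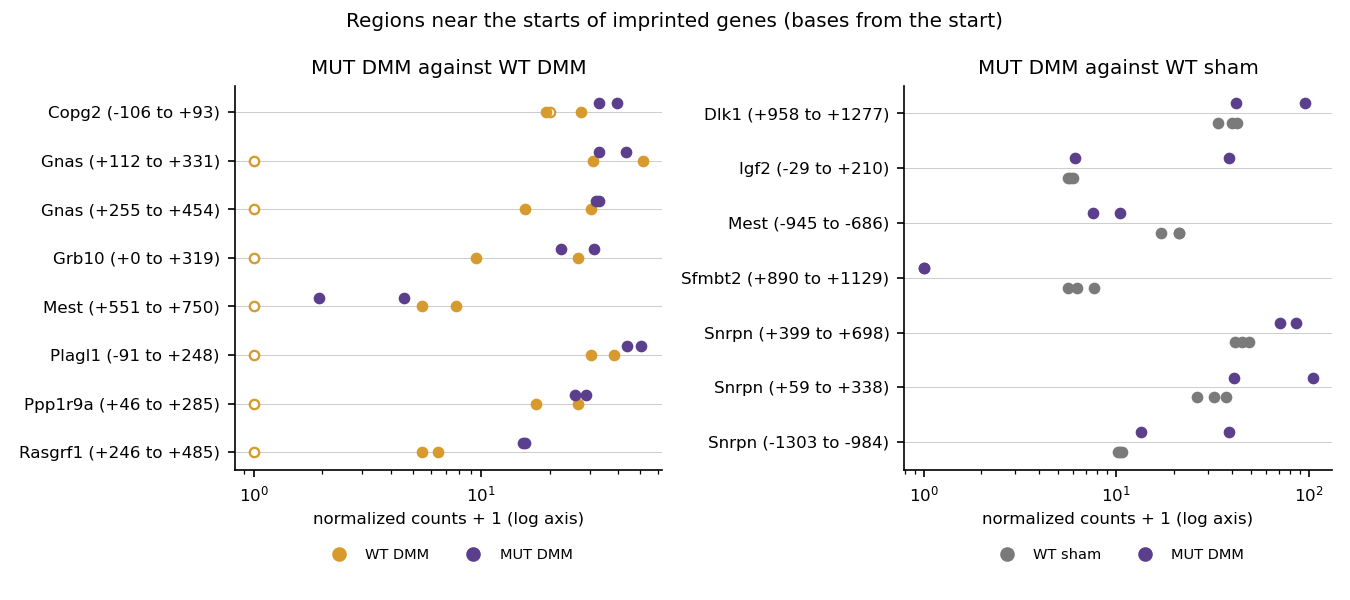
Each point is a library at a called region within 1 kb of a start site of a member with a promoter entry. The x axis gives normalized counts plus 1 on a log axis, and brackets give the bases of the region from the start. Hollow points are the nearly empty WT DMM library. The left panel shows MUT DMM (purple) against WT DMM (orange) and the right panel MUT DMM against WT sham (grey); at Plagl1, Copg2 and Rasgrf1 both MUT DMM libraries lie above all WT DMM libraries.

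In the Kcnq1 cluster all 8 listed regions were nearest to Kcnq1, 2 higher and 6 lower in MUT DMM. The higher region just past the upper bound of the gene, chr7:143428101-143428620, held 84 and 107 in MUT DMM and 38.2, 32.3 and 29.8 in WT DMM. Both MUT DMM libraries lay above every WT DMM library, including the nearly empty one, at 2.85-fold by the means. The mean was 95.3 ± 16 (SD, n = 2) in MUT DMM and 33.5 ± 4.32 (SD, n = 3) in WT DMM, and the authors' deposited table gave an adjusted p of 1.3e-05. limma's adjusted p was 0.675. Of the lower regions, 3 lay inside the bounds of Kcnq1ot1, and at chr7:143265581-143266000 levels were 1.17 and 3.55 in MUT DMM against 19.1, 6.02 and 9.74 in WT DMM.

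The Snrpn cluster had 8 regions in each direction. Ndn, which encodes the growth suppressor necdin, had 5 higher and 1 lower, all outside the gene. At chr7:62328221-62328440 MUT DMM held 13.3 and 21.3 and WT DMM 0, 5.27 and 1.22, 8.01-fold by the means, and the log2 ratio of 2.54 stayed at 2.11 or above with each library left out. A pair of higher regions nearer the gene, chr7:62334981-62335240 and chr7:62335581-62335860, held 39.3 and 35.5 and 64.6 and 35.5 in MUT DMM against 0, 18.8 and 9.74 and 9.56, 18.8 and 31.1 in WT DMM. None of these 3 overlapped between groups. The lower region, chr7:62335681-62335920, shares bases with the last of them and held 0.47 and 0 against 9.56, 5.27 and 6.09. Outside the bounds of Ube3a, chr7:59208421-59208800 held 55.9 and 56.9 in MUT DMM and 0, 37.6 and 23.7 in WT DMM. Ube3a had 3 higher and 4 lower regions, Magel2, a ubiquitin ligase regulator, had 2 lower and Snrpn itself 1 lower.

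The Dlk1-Dio3 cluster had 3 higher and 13 lower regions. All 6 regions nearest to Mirg were called lower, all outside its bounds and up to 235 kb away, with MUT DMM means of 0.235 to 7.65 against 3.39 to 18.1. At chr12:109751601-109751820, next to Mirg, MUT DMM held 0.94 and 0 and WT DMM 19.1, 2.26 and 3.04, without overlap, and its log2 ratio of -2.64 was -1.31 without the nearly empty library. Inside Meg3, chr12:109560341-109560620 held 1.17 and 3.55 in MUT DMM and 0, 4.51 and 10.3 in WT DMM, in reads 5 and 1 against 0, 6 and 17. This lower call turned without the third-listed WT DMM library, to a log2 ratio of 0.05. Dlk1 had 1 higher and 4 lower regions. Dio3, which inactivates thyroid hormone, had 2 higher and 2 lower, and the higher region chr12:110306041-110306300 held 47.3 and 67.5 against 38.2, 31.6 and 27.4 without overlap.

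Calls in the other clusters were mostly of low levels. All called regions of Copg2 (4), Commd1 (3), Asb4 (3) and Slc38a4 (5) were lower in MUT DMM. At chr15:96966101-96966480, outside Slc38a4, MUT DMM held 0.23 and 0 and WT DMM 9.56, 4.51 and 10.3, in reads 1 and 0 against 1, 6 and 17. Sfmbt2, a Polycomb group protein, had 3 higher and 5 lower, and the higher region chr2:10387381-10387660 held 18.5 and 21.3 against 0, 7.52 and 9.74 without overlap. Igf2r had 2 higher and 1 lower, and inside the gene chr17:12726181-12726420 held 23.9 and 28.4 in MUT DMM against 0, 9.03 and 11 in WT DMM. The single H19 region, chr7:142590981-142591240, lies 12835 bases from this noncoding RNA and held 1.64 and 0 against 19.1, 4.51 and 4.87. Its log2 ratio of -2.53 was -1.64 without the nearly empty library. In Gnas, chr2:174290561-174290940 also lies within the antisense RNA Gnasas1 and held 1.64 and 3.55 in MUT DMM against 9.56, 12 and 8.52 in WT DMM. The smallest adjusted p of a member in this comparison in the authors' deposited table, 2.16e-07, belonged to chr15:72946181-72946520 in Trappc9. Levels there were 14.5 and 21.3 in MUT DMM and 19.1, 35.4 and 32.9 in WT DMM, and the empty library lay among the MUT DMM values.

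MUT DMM against WT sham sets operated mutant knees against wild-type knees without DMM, so genotype and surgery cannot be told apart in it. All 131 listed member regions, from 32 genes, were called, 51 higher and 80 lower in MUT DMM, and of all regions listed for this comparison 99.3% were called, 43.2% higher and 56.1% lower. Higher regions had median levels of 60.4 in MUT DMM and 26.6 in sham, and lower regions had 0.185 and 7.79. Of the 131 regions, 38 were higher without overlap, beside 32.5% of all listed regions, and 74 were lower without overlap, beside 49.1%. Of these 74, 40 were at 0 in both MUT DMM libraries. In 75 of the 80 lower regions the shallower MUT DMM library held 0 or 1 read, and limma takes such values as measured. limma's adjusted p passed at 8 higher and 58 lower members of 131, beside 8.19% and 39% of all listed regions, and its unadjusted p was under 0.05 at 85 (60.4%). Without the deeper MUT DMM library 4 of the 131 member regions turned, all of them higher ones, or 3.053% against 2.056% of all called regions.

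In 40 of these regions, 30.53% of those called, both MUT DMM libraries held no read, against 21.24% of all called regions. A count of 0 allows up to 3 reads, or 2.21 normalized counts in the deeper library and 28.3 in the shallower. Sham means in these regions ran from 4.13 to 9.84 in all but 1, below the limit of the shallower library, so only the deeper one could show a lower level. Rasgrf1 had 5 regions, all lower and all at 0 in MUT DMM. At chr9:89948321-89948580 inside the gene sham libraries held 7.42, 11.6 and 5.83, in reads 14, 10 and 21. At chr9:89911161-89911500, also inside the gene, sham held 5.83, 4.63 and 5.55. limma's adjusted p was 0.00285 and 0.00203. It counted the 0 of the shallower library as a second measured value, so these p-values rest on the deeper MUT DMM library. Trappc9 had 8 regions at 0 in MUT DMM, Slc38a4 4 and Kcnq1 3.

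The Dlk1-Dio3 cluster had 4 higher and 14 lower regions in this comparison. All 5 Dio3 regions were lower without overlap, as were 49.1% of all regions listed for this comparison. At chr12:110352461-110352740 sham held 4.77, 6.95 and 5.27 and MUT DMM was at 0, and at chr12:110305221-110305600 sham held 21.2, 16.2 and 15 and MUT DMM 5.15 and 9.45. Mirg had 6 lower and 3 higher regions, and at chr12:109893721-109894100 levels were 25 and 18.9 in MUT DMM and 72.7, 70.6 and 28.3 in sham. Dlk1, a transmembrane protein related to Notch ligands, had 3 lower regions, of which chr12:109470181-109470620 held 126, 6.95 and 8.88 in sham and 1.47 and 0 in MUT DMM, so the first-listed sham library stood far above the others, and the log2 ratio of -4.79 was -2.36 without it. Its higher region began 958 bases after the Dlk1 start, at chr12:109453781-109454100, where MUT DMM held 41.2 and 94.5 and sham 32.9, 41.7 and 38.8. The deeper MUT DMM library lay within the sham range there, and without the shallower one the log2 ratio of 0.83 was 0.12.

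Around the start site of Snrpn, the control region from which the paternal copy of the cluster is transcribed, 2 neighbouring regions named Snurf by the authors were higher in MUT DMM. They were described after their values were seen. The first, chr7:60004861-60005140, lies 59 to 338 bases after the start of the printed window. MUT DMM held 39.8 and 104 and sham 36.1, 25.5 and 31.4. The second, chr7:60004501-60004800, held 70 and 85 in MUT DMM and 40.3, 44 and 48 in sham, in reads 95 and 9 against 76, 38 and 173. Both MUT DMM libraries lay above all 3 sham libraries at each of them. In the second the mean was 77.5 ± 10.7 (SD, n = 2) against 44.1 ± 3.85 (SD, n = 3). The authors' deposited table gave adjusted p-values of 0.000368 and 0.000735, while limma's were 0.109 and 0.0569. Without the shallower MUT DMM library the log2 ratios were 0.35, from 1.19, and 0.65, from 0.80. Within 1 kb of a start of the members with a promoter entry lay 7 regions in this comparison, 5 higher and 2 lower. Of the 4794 such regions of any gene, 55.05% were higher.

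In the H19/Igf2 cluster the region at an Igf2 start, chr7:142661061-142661300, named Igf2os by the authors, held 5.15 and 37.8 in MUT DMM and 4.77, 4.63 and 4.99 in sham. Its deeper library lay just above the sham range and its shallower one held 4 reads, without which the log2 ratio of 1.96 was 0.09. Outside the bounds of Igf2, chr7:142632421-142632700 held 53.8 and 113 against 40.3, 38.2 and 37.5, with a log2 ratio of 1.09 that was 0.47 without the shallower library. Cdkn1c, the cell cycle inhibitor of the Kcnq1 cluster, had 1 region, inside the gene at chr7:143460061-143460260, with 86.9 and 75.6 in MUT DMM and 41.4, 50.9 and 59.4 in sham. Mest had a lower region before a start, chr6:30732561-30732820, with 6.63 and 9.45 against 20.1, 16.2 and 20.2. The lower region of Sfmbt2 after its start, chr2:10371341-10371580, was at 0 in MUT DMM and held 5.3, 4.63 and 6.66 in sham. Kcnk9, a potassium channel beside Trappc9, had 1 higher region, chr15:72562181-72562460, with 91.3 and 132 against 73.7, 68.3 and 64.6.

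**Figure D4:**
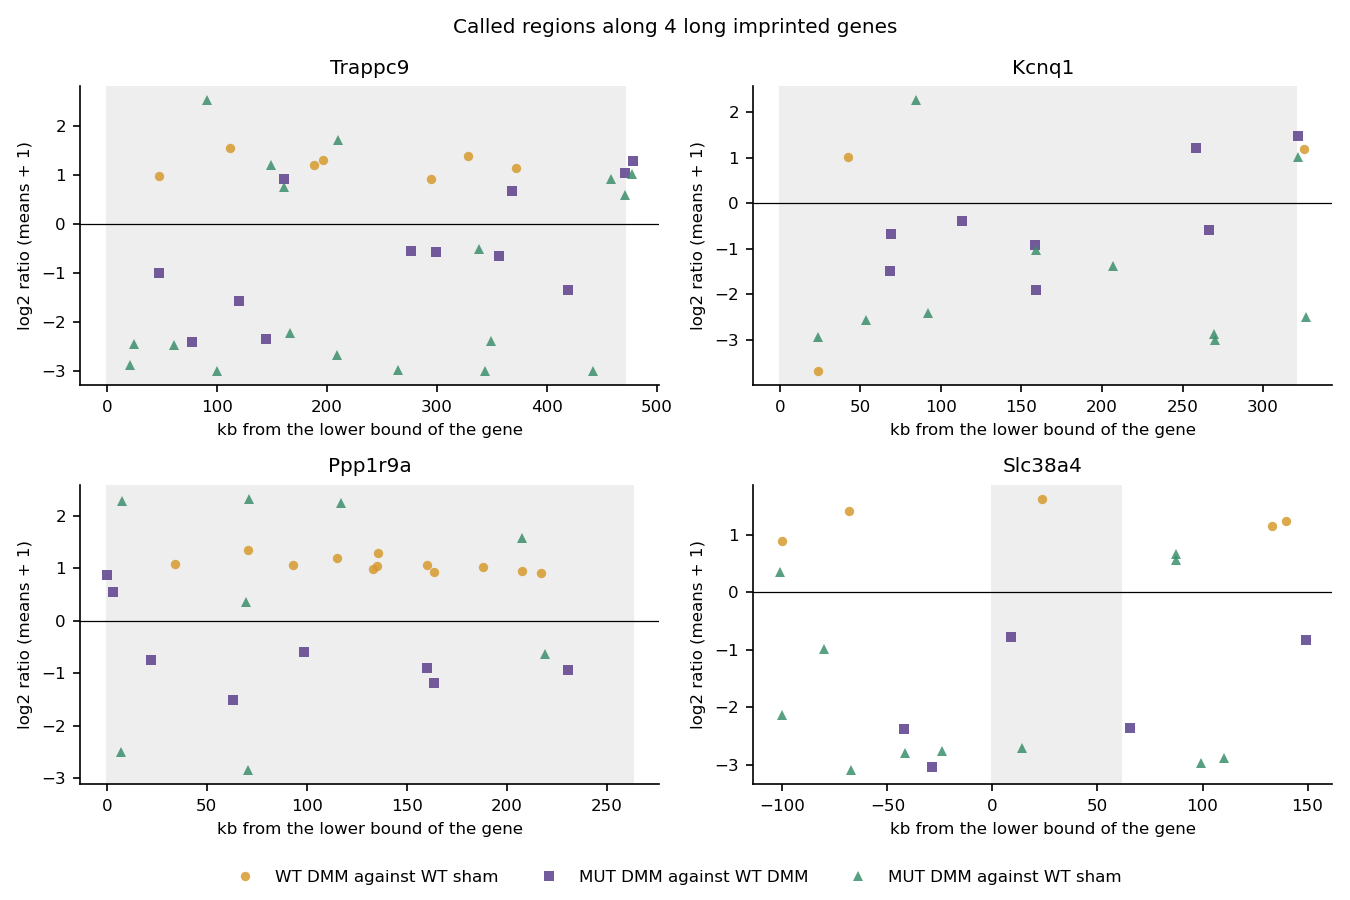
Each point is a called region of Trappc9, Kcnq1, Ppp1r9a or Slc38a4, at its distance in kb from the lower bound of the gene (grey: the gene), with the log2 ratio of the group means, each plus 1, on the y axis. Circles (WT DMM against WT sham) lie above 0 except for 1 Kcnq1 region at -3.7. Triangles (MUT DMM against WT sham) lie on both sides in each gene. Squares (MUT DMM against WT DMM) do so too, except in Slc38a4, where all 5 lie below 0.

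Along the long genes, higher and lower calls of MUT DMM against WT sham were interspersed, as the plot of log2 ratios along 4 genes shows. Trappc9 had 7 higher and 11 lower regions in MUT DMM against WT sham, all 18 without overlap. Of all regions listed for this comparison, 32.5% were higher and 49.1% lower without overlap. Of the 11 lower Trappc9 regions, 8 were at 0 in both MUT DMM libraries. Trappc9's lower region chr15:72610841-72611120 was at 0 in MUT DMM and held 6.36, 6.95 and 5.83 in sham. Its higher region chr15:72750721-72751100 held 82.5 and 66.1 in MUT DMM and 35.5, 48.6 and 48 in sham. Kcnq1 had 2 higher and 8 lower regions, and limma called 5 of the lower ones, beside 39% of all listed regions called lower by limma. Here too limma took a 0 of the shallower MUT DMM library as a measured value. At chr7:143376401-143376680 MUT DMM held 1.47 and 0 and sham 9.01, 11.6 and 14.7, with a limma adjusted p of 0.0132. Slc38a4 had 3 higher and 8 lower regions, and Ppp1r9a 5 higher and 3 lower.

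The smaller clusters had few regions. Airn, the noncoding RNA that silences Igf2r on the paternal copy, had 2 lower regions in MUT DMM against WT DMM, and at chr17:12790101-12790440 levels were 5.15 and 7.11 in MUT DMM and 0, 17.3 and 18.9 in WT DMM. Against sham it had 1 higher region, chr17:12785121-12785360, with 2.21 and 18.9 in MUT DMM and 0.53, 1.16 and 0.83 in sham, and 2 lower ones. The log2 ratio of that higher region, 2.65, was 0.80 without the shallower MUT DMM library. Ddc, the enzyme that makes dopamine and serotonin from their precursors, had 2 lower regions against WT DMM and 1 in each direction against sham. Its higher region chr11:11831621-11831840 held 1.47 and 18.9 against 0, 0 and 1.39 in sham, and the log2 ratio of 2.93 was 0.755 without the shallower MUT DMM library. Blcap, a neighbour and host of Nnat, had its single region, chr2:157569901-157570100, in MUT DMM against WT DMM, with 1.17 and 0 against 19.1, 1.5 and 6.09. The log2 ratio of -2.64 there was -1.60 without the nearly empty library. Impact, a regulator of protein synthesis, had 1 higher and 2 lower regions against WT DMM and 1 higher against sham.

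Inpp5f, a phosphoinositide phosphatase, had 3 higher regions after DMM, 1 lower region in MUT DMM against WT DMM and 3 lower against sham. Against WT DMM, chr7:128609481-128609680 held 2.11 and 3.55 in MUT DMM and 0, 2.26 and 18.3 in WT DMM, and this call turned without the third-listed WT DMM library, to a log2 ratio of 0.85. Against sham, chr7:128604541-128604860 held 7.36 and 18.9 in MUT DMM and 25.4, 28.9 and 19.7 in sham. In the Peg3 cluster, Usp29 had 2 higher regions against sham, of which chr7:6977421-6977660 held 56 and 37.8 against 32.4, 33.6 and 29.7. Zim1, a zinc finger gene, had 2 lower, of which chr7:6684321-6684600 held 2.95 and 9.45 against 53, 4.63 and 3.33 and turned without the first-listed sham library, to 0.53. Calcr had 3 higher and 2 lower regions against WT DMM, and at chr6:3646661-3646940 MUT DMM held 37.4 and 28.4 and WT DMM 0, 33.9 and 24.4. The log2 ratio of 0.73 there was 0.17 without the nearly empty library. In Ppp1r9a, chr6:5110041-5110640 held 36.8 and 94.5 in MUT DMM and 20.7, 19.7 and 23.6 in sham.

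Herc3, a ubiquitin ligase gene whose intron holds the imprinted Nap1l5, had most of its calls below the lower bound of the gene. MUT DMM against WT DMM gave 5 higher and 2 lower regions, and MUT DMM against WT sham 5 higher and 1 lower. The 2 comparisons share the MUT DMM libraries, so their values stand side by side and are not independent. At chr6:58791641-58792220, 39235 bases from the gene, MUT DMM held 69.3 and 81.8 and WT DMM 28.7, 33.9 and 30.4. In the sham table the overlapping region chr6:58791841-58792220 held 172 and 170.1 in MUT DMM and 89.6, 86.8 and 69.1 in sham. Neither pair of groups overlapped. By limma the adjusted p was 0.675 in the first of these and 0.0132 in the second.

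Within 10 kb of Herc3 adjoining regions went opposite ways. At chr6:58821521-58821800 MUT DMM was lower, with 19.2 and 14.2 against 0, 67.7 and 48.7 in WT DMM and 60.4 and 37.8 against 62, 176 and 186 in sham. The next region, chr6:58821821-58822040, follows directly and was called higher, with 91 and 88.9 against 47.8, 65.4 and 34.1 in WT DMM and 286 and 236 against 166, 201 and 241 in sham, where the groups overlapped. At chr6:58823521-58823940 MUT DMM held 74.9 and 74.6 and WT DMM 38.2, 45.9 and 22.5. Inside the gene, chr6:58872081-58872360 held 37.4 and 32 against 0, 27.8 and 28. The region at the lower bound of the gene, chr6:58831441-58831780, held 39.3 and 24.9 against 0, 32.3 and 12.8 and was listed but not called.

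**Figure D5:**
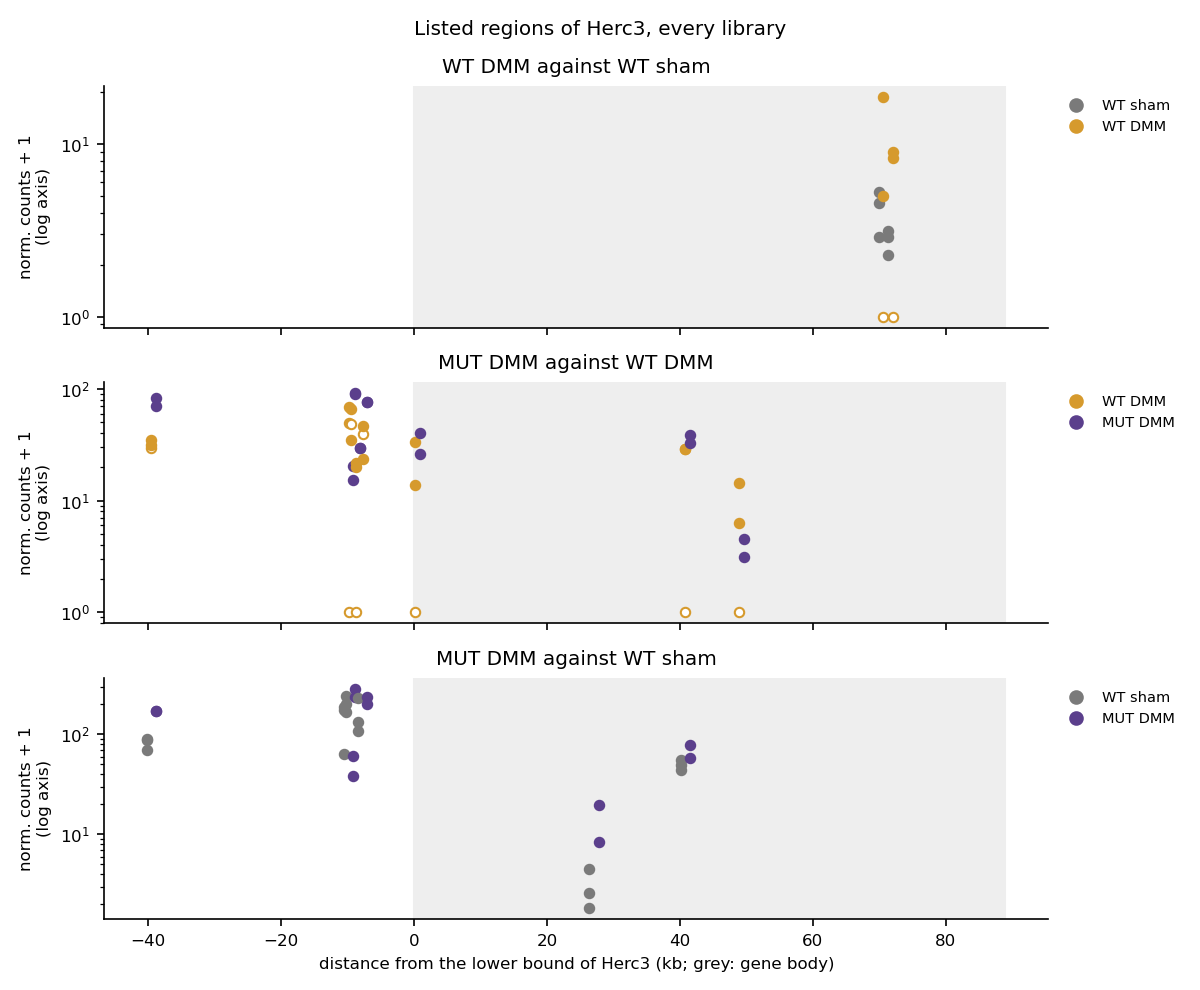
Every listed region of Herc3 is placed at its distance in kb from the lower bound of the gene (grey: the gene), with each library's normalized counts plus 1 on a log axis; purple is MUT DMM, orange WT DMM, grey WT sham and hollow orange the nearly empty WT DMM library. At the region 39235 bases from the gene both MUT DMM libraries lie above every WT library in both MUT DMM panels.

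Across both mutant comparisons, 22 pairs of regions of 15 member genes overlapped in their bounds. Kcnq1 had the region past its upper bound described above, which in the sham table, as chr7:143428241-143428600, held 191 and 236 in MUT DMM and 118, 79.9 and 118 in sham. There the mean was 214 ± 31.6 (SD, n = 2) against 105 ± 22.1 (SD, n = 3), and limma's adjusted p was 0.0237. Inside Plagl1, MUT DMM held 34.4 and 42.6 and WT DMM 0, 21.1 and 21.3 at chr10:13108321-13108580, and 109 and 113 against 75.3, 69.5 and 62.4 in sham at chr10:13108281-13108580. In Gnas, the region starting at 174299701 held 79.5 and 67.5 against 0, 68.5 and 36.5 in WT DMM and 138 and 104 against 46.1, 54.4 and 96.8 in sham. Near Ndn, the region starting at 62335001 held 123 and 94.5 against 69.5, 55.6 and 83.5 in sham, and its values against WT DMM stand above.

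Lower in both mutant comparisons were, among others, regions of Copg2, Slc38a4, Mirg, Dio3 and of Kcnq1 inside Kcnq1ot1. At Copg2, chr6:30804421-30804660 held 0.94 and 3.55 in MUT DMM and 0, 9.03 and 9.74 in WT DMM, and chr6:30804381-30804600 was at 0 in MUT DMM and held 9.54, 13.9 and 6.1 in sham. At Slc38a4, chr15:96952841-96953080 held 0.47 and 0 against 9.56, 3.76 and 3.04, and chr15:96952861-96953120 held 1.47 and 0 against 9.54, 13.9 and 9.99 in sham. In Kcnq1ot1, chr7:143265761-143265960 held 3.68 and 9.45 in MUT DMM and 9.54, 16.2 and 17.5 in sham. Next to Sgce, which encodes epsilon-sarcoglycan, the directions differed: chr6:4669221-4669500 was called lower with 0.47 and 3.55 against 0, 3.01 and 6.7 in WT DMM, and the overlapping chr6:4669361-4669720 was called higher with 2.95 and 18.9 against 1.06, 2.32 and 0.55 in sham. The first of these calls turned when the third-listed WT DMM library was left out.

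In 11 pairs of 9 genes a region of WT DMM against WT sham overlapped one of MUT DMM against WT DMM. These comparisons share the WT DMM libraries, so a high WT DMM value raises one and lowers the other. Near Grb10, chr11:11924681-11924920 held 2.56, 3.58 and 1.2 in sham and 0, 9.34 and 10.4 in WT DMM, and in the second table chr11:11924681-11924900 held 0.47 and 3.55 in MUT DMM and 0, 5.27 and 6.09 in WT DMM. In Ppp1r9a, chr6:5066281-5066480 held 2.88, 3.58 and 1.37 in sham and 0, 9.34 and 8.33 in WT DMM, and chr6:5066101-5066380 held 1.87 and 3.55 in MUT DMM against 0, 9.03 and 13.4. At Commd1, chr11:22980121-22980480 held 2.11 and 7.11 in MUT DMM and 0, 11.3 and 26.8 in WT DMM beside the gain after DMM given above. In each, the first-listed WT DMM library held no read.

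The region just past Peg10 was the only member region with overlapping bounds in all 3 tables, and it was lower in each. Besides the values after DMM given above, MUT DMM was at 0 against 9.56, 3.01 and 6.09 in WT DMM at chr6:4760901-4761120, in reads 1, 4 and 10. At chr6:4760781-4761100 MUT DMM was at 0 and sham held 79, 4.63 and 7.49, in reads 149, 4 and 27. The first-listed sham library again stood far above the other two, and without it the log2 ratio of -4.97 was -2.82. By limma the adjusted p was 0.675 in the second table and 0.041 in the last.

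A further 50 regions over the 3 tables lay inside the RefSeq bounds of a member but carry another name in the authors' tables, so they are in none of the counts above. They were called 12 higher and 2 lower in WT DMM against WT sham, 5 and 11 in MUT DMM against WT DMM, and 9 and 10 in MUT DMM against WT sham. Of all listed regions, 93.2%, 34.2% and 43.2% were called higher in these comparisons and 6.53%, 64.7% and 56.1% lower. In the comparison with WT DMM, levels were high in a region that overlapped the Mir432 hairpin inside the Rtl1 bounds, chr12:109594601-109595020, named Mir136. MUT DMM libraries held 332 and 323 and WT DMM libraries 105, 495 and 647, so MUT DMM lay between the nearly empty library and the other two. Without the third-listed WT DMM library this lower call turned. Over the Mir673 hairpin, chr12:109571861-109572240 held 6.79 and 14.2 in MUT DMM and 0, 18.1 and 26.8 in WT DMM, and this lower call turned in the same way. At chr12:109577061-109577420, named Mir493, MUT DMM held 16.9 and 18.9 against 31.3, 34.7 and 36.9 in sham, without overlap.

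Inside the long bounds of Snrpn, chr7:60322341-60322640 was lower after DMM, with 176, 119 and 251 in sham and 62.7, 98.7 and 90.6 in WT DMM, in reads 548, 167 and 1466 against 4, 74 and 87. The groups did not overlap, with means of 182 and 84. In the second table the overlapping chr7:60322441-60322680 was higher in MUT DMM, with 87.3 and 85.3 against 38.2, 53.4 and 48.1 in WT DMM, again without overlap and with shared WT DMM libraries. Also lower after DMM inside these bounds, chr7:60351041-60351240 held 66, 73 and 76.2 in sham and 0, 72 and 59.35 in WT DMM. The groups overlapped there, and its log2 ratio of -0.699 was -0.125 without the nearly empty library. The region in Dio3, chr12:110279941-110280220, named Mir1247, starts 711 bases after the Dio3 start and held 1.92, 2.86 and 2.05 in sham and 0, 8 and 12.5 in WT DMM. At Gnas, chr2:174292641-174292920, named for the antisense RNA, was at 0 in MUT DMM and held 5.83, 4.63 and 4.44 in sham.

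Regions of members lay mostly in or near the genes. Inside the bounds of their own gene lay 52 of 80 regions for WT DMM against WT sham, 73 of 131 for MUT DMM against WT DMM and 69 of 131 for MUT DMM against WT sham. Over 50 kb away lay 11, 15 and 24, the farthest 252 kb from Mirg, where the nearest-gene name says little about the gene. In MUT DMM against WT DMM, 41.46% of the higher member regions and 64.77% of the lower ones lay at distance 0 from their nearest gene in the authors' table, beside 55.16% and 50.51% of all regions called higher and lower.

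A list of 24 other genes of imprinted clusters, chosen with earlier results known, had 28 higher and 2 lower regions in WT DMM against WT sham, 19 and 25 in MUT DMM against WT DMM, and 15 and 22 in MUT DMM against WT sham. The 15 genes of imprint maintenance and 5hmC turnover, among them Zfp57, Trim28, Dnmt1, Uhrf1 and the TET enzymes, had 13 and 2, 9 and 29, and 14 and 25. Every list here is to be read beside the shares of all listed regions called higher and lower. These were 93.2% and 6.53%, 34.2% and 64.7%, and 43.2% and 56.1% in the 3 comparisons. Markers of cartilage, 9 genes, had 15 and 1, 8 and 17, and 17 and 12. The 20 markers of endothelium, blood, skeletal muscle and fat had 35 and 7, 16 and 53, and 27 and 52. Of these, 14, 18 and 15 genes were listed. The pooled counts hide differences between the tissues. In MUT DMM against WT DMM, endothelium had 5 and 27, blood 3 and 13, muscle 7 and 7 and fat 1 and 6. In MUT DMM against WT sham, endothelium had 9 and 30 and blood 5 and 12, but muscle 9 and 7 and fat 4 and 3. The summed levels of these other-tissue markers per library ran from 15.7 to 851 in WT DMM and 508 to 560 in sham in the first table, from 761 to 825 in MUT DMM and 325 to 1173 in WT DMM in the second, and from 1151 to 1493 in MUT DMM and 1253 to 1641 in sham in the last. Sums over the cartilage markers were 0 to 315.5 in WT DMM and 116.9 to 128.4 in sham, then 289.0 to 366.0 in MUT DMM and 86.04 to 393.3 in WT DMM, and 1289 to 1521 in MUT DMM and 1066 to 1161 in sham. Sums over the members were 15.68 to 1257 in WT DMM and 197.4 to 353.5 in sham, then 2105 to 2228 in MUT DMM and 879.5 to 2199 in WT DMM, and 3392 to 3400 in MUT DMM and 2963 to 3322 in sham. The cartilage and member sums of MUT DMM against WT sham were both higher in each MUT DMM library than in every sham library, while the other-tissue sums overlapped. Yet 80 of the 131 member regions in these sums were lower in MUT DMM, so regions of high level weigh most. All sums cover only regions listed as differing between the groups compared, so they are not a test between groups. 5hmC at a marker gene does not count cells, and the part of cell makeup in the members' values was not tested.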

How the data were processed

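Knee cartilage DNA was profiled for 5hmC at CCGG sites, with 15 PCR cycles per the labels' protocols. Per the submitters' processing notes, HISAT2 2.1.0, Trim Galore 0.5.0, bcl2fastq 2.20.0, bedtools and SAMtools were used with genome build mm10. For the region caller and the scaling, the steps are not given in the sources used here. Deposited tables list regions built of windows of 200 bases with a window p-value of at most 0.0001, so regions that did not differ are absent, and a gene with no region was not shown to be equal between groups. Each row holds, per the file headers, the authors' mean signal of the groups, the normalized count of each library joined in a cell, and p-values, raw and adjusted, by the authors. Whether their test used the repeated MUT DMM entry is not stated. Library steps in these counts gave the value of 1 read, and hence reads. Across tables, the same library held equal reads wherever region bounds were equal.

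Group means, SDs and log2 ratios (pseudocount 1) were computed from the 8 distinct libraries with Python 3.11.15 and pandas 2.3.3. limma 3.58.1 in R 4.3.3 was fitted as an alternative to log2(value + 1) over every region of a table, with Benjamini-Hochberg adjustment, after being tested on simulated data. The simulation had 3 against 3 even libraries, large changes and no 0 values. It does not show how limma behaves at the low counts and uneven depth here. An exact permutation test cannot go below p = 0.1 with 3 against 3 libraries, or 0.2 with 2 against 3, so none is given. The rule for regions to give with every library took that of smallest adjusted p in each cluster and direction, those in all 3 tables and those at the start of the gene they are named for. Part of these are given, and the other regions given, including those at a start but named for another gene, were chosen after their values were seen. Members and lists were chosen with earlier results of these data known.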

Additional observations from a re-analysis of the deposited data

How the results depend on the processing

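The tables list differing regions only, the WT DMM group rests on 2 filled libraries and the MUT DMM group on 2 distinct ones, so small differences are not detectable at this depth. No paired analysis was possible because the columns carry no replicate numbers, and the replicate block was not run. Counts of called member regions moved by more than 1.5 times only in the following cases. The 78 higher regions in WT DMM against WT sham became 0 by limma with pseudocounts of 1, 0.5 and 4, and ran from 48 to 78 with each library left out. The 2 lower ones became 4 within RefSeq bounds extended by 5 kb, 0 by limma with each pseudocount and 1 by limma without the nearly empty library, and ran from 1 to 2 with each library left out. In MUT DMM against WT DMM the 41 higher regions became 23 within extended RefSeq bounds, 22 within RefSeq bounds, 0 by limma with each pseudocount and 9 by limma without the nearly empty library, and ran from 39 to 41 with each library left out. The 88 lower ones became 0 by limma with each pseudocount and 8 without the nearly empty library, and ran from 71 to 88. In MUT DMM against WT sham the 51 higher regions became 8, 7 and 8 by limma with pseudocounts of 1, 0.5 and 4, and ran from 47 to 51, and the 80 lower ones became 52 within RefSeq bounds and ran from 78 to 80. A threshold of 0.01, every listed region and leaving out regions with both means under 5 moved none of these counts by more than 1.5 times. Counting all 3 MUT DMM entries could not move them, since calls and directions already came from the authors' deposited p-values and means. The cause of the moves was not tested, except that RefSeq bounds leave out distant regions by construction.

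Of 84 regions of smallest adjusted p in their cluster and direction, not all of which are described, 12 changed direction when 1 library was left out, as did 6 of 64 others, and 0 of the 84 did so with another pseudocount. Their lowest and highest log2 ratios with each library left out, named by gene and start, were as follows. In WT DMM against WT sham these were -0.302 to 1.741 at Kcnq1 143431881, -0.915 to 2.148 at Copg2 30855241, -0.496 to 1.486 at Herc3 58901941, -2.136 to 1.34 at Peg10 4760921, -0.252 to 1.526 at Plagl1 13056701 and -0.421 to 1.698 at Ube3a 59252121. In MUT DMM against WT DMM these were -1.556 to 0.846 at Inpp5f 128609481, -1.628 to 0.782 at Kcnq1 143373301, -1.577 to 0.521 at Dio3 110305221, -1.456 to 0.046 at Meg3 109560341, -0.798 to 0.127 at Mir136 109594601, -1.034 to 0.199 at Mir673 109571861, -0.112 to 1.258 at Gnas 174327861 and -1.527 to 0.265 at Sgce 4669221. In MUT DMM against WT sham these were -0.027 to 0.804 at Mirg 109935441, -2.269 to 0.316 at Airn 12833761, -2.433 to 0.532 at Zim1 6684321 and -0.22 to 1.67 at Sfmbt2 10537401. The library whose loss turned the call was the third-listed WT DMM library in 5 regions after DMM and in 7 regions of the MUT DMM to WT DMM comparison, and the first-listed sham library at Peg10, Airn and Zim1. Without the deeper MUT DMM library Kcnq1 143373301 also turned, to 0.002, as did Sgce 4669221, to 0.103, and Mirg 109935441. Without the shallower one Sfmbt2 10537401 turned, and without the nearly empty library Gnas 174327861.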
